A study of Mus musculus with 23 samples.

Results

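Tumour cells sorted from mouse mammary tumours after 21 days of nintedanib were compared with tumour cells sorted after 7 days. The comparison takes 5 long-term arrays (21 days) and 4 short-term arrays (7 days), chosen by their labels alone, out of 23 arrays in the series. All tumours grew from Py2T, a murine breast cancer line, in the mammary fat pad of female FVB/N mice, and treated animals received nintedanib at 50 mg per kg of body weight. The other groups used here are 3 arrays of tumour cells from untreated mice and, for the last comparison, 5 long-term and 3 short-term arrays of endothelial cells sorted from Py2T tumours. Untreated tumours were size-matched to those of the 21-day group, and drug-free tumours of the size reached at 7 days were not analysed here. The labels call the arrays of a group biological replicates and do not say whether a sample was 1 animal or a pool, nor which surface markers the sort used.

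Nintedanib blocks the kinase activity of the VEGF, FGF and PDGF receptors. The VEGF receptors sit mainly on vessels, while FGF and PDGF receptors can also act in tumour cells, where they feed the RAS-ERK pathway and the genes of its feedback loop. Tumours that resume growth during anti-angiogenic therapy can differ from tumours early in therapy in cell division, oxygen supply and their use of glucose and lactate, and the study's title names metabolic symbiosis as a route to resistance.

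Values are log2 signals, so a difference of 1 log2 unit is a 2-fold difference. Errors beside differences are standard errors of the limma fit. Called genes are those whose Benjamini-Hochberg adjusted p, taken over 19938 genes, was under 0.05. Pairs of arrays correlated across genes at 0.9858 to 0.9927 within the long-term group, at 0.9903 to 0.9926 within the short-term group and at 0.9823 to 0.9909 between them. The sorted cells carried the keratins Krt8 (11.22 to 11.65 over the 9 arrays) and Krt18 (10.37 to 11.03), which form intermediate filaments of simple epithelia, and the mesenchymal filament gene Vim (11.99 to 12.19). The epithelial adhesion gene Epcam was low, at 4.07 to 5.26, against group means of 4.41 and 4.71 in the treated endothelial cells, so this epithelial marker gave no separation. The endothelial marker Pecam1 (3.79 to 4.77) and the leukocyte marker Ptprc (3.83 to 4.18) were low in all 9 arrays. Macrophage signal was not even across arrays. The mean of 22 macrophage and monocyte markers was 4.09, 4.03, 4.61 and 4.75 in short-term replicates 1 to 4. It was 4.40 to 4.79 in the long-term arrays, and member differences ran from -0.18 to 1.24.

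Between 7 and 21 days 243 genes changed (1.22% of the genes tested, limma), 124 of them higher (0.622%) and 119 lower (0.597%) in long-term cells. Counts of called members of the gene lists below stand against these shares. The lists and their members were chosen with earlier results of these data known, so such counts describe the lists and test nothing. The median size of a called difference was 0.84 log2 units, and 75 genes (0.376%) differed by at least 2-fold, 36 higher and 39 lower. The groups did not overlap for 240 of the 243 called genes, against 5.34% of all genes tested (2.94% higher and 2.40% lower), and the exceptions were Tmem100, Kif23 and Plxdc1. A call on the same arrays favours such separation, so for a called gene it adds no support. At an unadjusted p under 0.05 there were 2365 genes (11.9%), 6.42% higher and 5.44% lower. The count of 243 fell to 122, 130, 119 and 95 without short-term replicates 1, 2, 3 and 4, and to 128, 119 and 156 without long-term replicates 2, 3 and 4. It was 226 and 302 without long-term replicates 1 and 5. With all 23 arrays in 1 fit 96 genes were called, 79 of them among the 243, and Crabp1, Etv1, Gas1, Gstm1, Hspa1a, Saa3 and Unc5b, which kept their calls without any 1 array, lost them there.

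**Figure D1:**
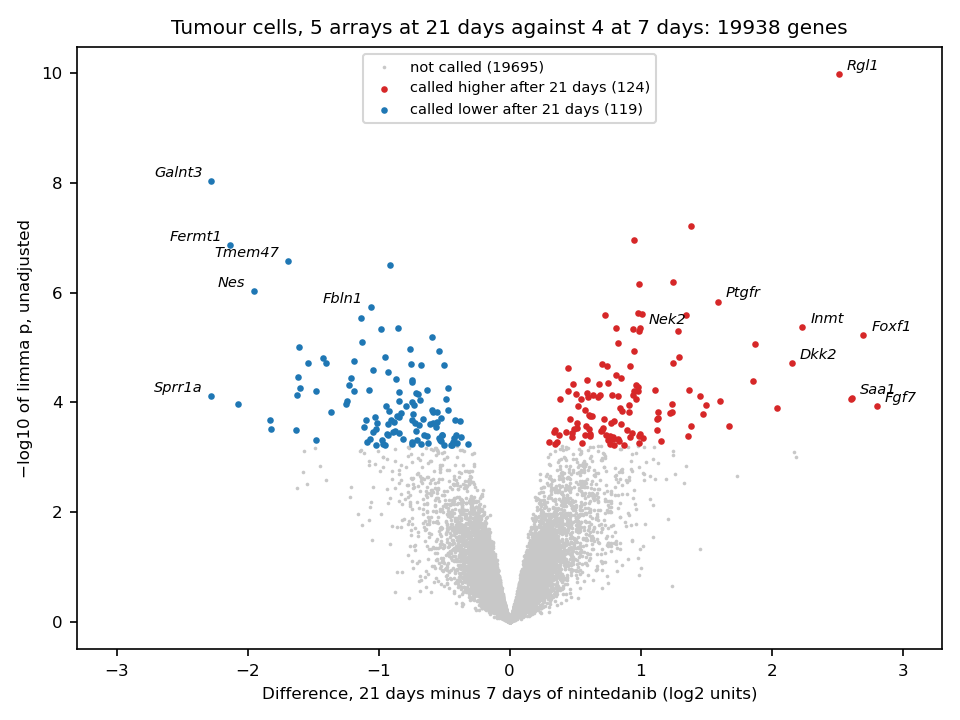
Each point is 1 of 19938 genes in tumour cells: the x axis gives the log2 difference of 5 long-term minus 4 short-term arrays, and the y axis the −log10 of the unadjusted limma p. The 124 genes called higher (red) and the 119 called lower (blue) reach differences of 2.80 (Fgf7) and -2.28 (Galnt3 and Sprr1a), and Rgl1 has the smallest p.

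Genes of cell division stood higher after 21 days as a group, although few passed the test one by one. Differences were positive for 49 of 49 measured mitosis genes (median 0.727 log2 units), where 49.2% of all genes were positive, 50.8% were negative and the median of all genes was -0.002. The test called 6 of them higher, against 0.622% of all genes, and 0 lower. At an unadjusted p under 0.05, 43 were higher, against 6.42% of all genes. In bulk samples a larger share of dividing cells and more such RNA per dividing cell cannot be told apart. The called genes were Nek2, a kinase of the centrosome cycle, Cdc25c, a phosphatase that activates Cdk1, Ect2 and Kif23, which act in cytokinesis, Spc25, a kinetochore subunit, and Birc5, a subunit of the chromosomal passenger complex. Cdc25c and Birc5 lost their calls without short-term replicates 1, 2, 3 or 4 or long-term replicates 2, 3 or 4. Leaving out short-term replicates 1, 2 or 3 or long-term replicates 2, 3 or 4 ended the call of Ect2. For Kif23 the call was lost without untreated replicates 1, 2 or 3 or short-term replicates 1, 3 or 4 or long-term replicates 1, 2, 3 or 4. Spc25 lost its call without untreated replicate 1 or short-term replicates 1, 2, 3 or 4 or long-term replicates 2 or 5.

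Nek2 read 4.44, 4.52, 4.67 and 4.70 in the short-term arrays and 5.47, 5.53, 5.93, 5.77 and 5.20 in the long-term arrays. All long-term arrays were above all short-term arrays, with replicate 5 the lowest of them. Its difference was 1.00 ± 0.13 (adjusted p = 0.004, limma), and it was called in all 22 alternatives, with adjusted p from 0.00118 to 0.0184. Cdc25c read 4.41, 4.38, 4.25 and 4.52 after 7 days and 5.41, 5.97, 5.70, 5.79 and 4.70 after 21 days. Here too the groups did not overlap, and long-term replicate 5 lay next to the short-term arrays. The remaining called members differed by 0.99 ± 0.20 (Ect2), 0.99 ± 0.21 (Kif23), 0.92 ± 0.19 (Spc25) and 0.80 ± 0.15 (Birc5). Mki67, the gene of the Ki-67 proliferation antigen, did not pass, with 7.26, 6.93, 6.91 and 7.51 after 7 days, 7.75, 8.08, 8.39, 8.33 and 7.22 after 21 days, and a difference of 0.80 ± 0.22 (adjusted p = 0.123). Foxm1, a transcription factor of the G2 and M phases, differed by 0.61 ± 0.24 (adjusted p = 0.319).

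Among the long-term arrays replicate 5 was the lowest for most of these genes, and replicate 1 came next. The mean of the 49 genes was 5.92, 6.04, 5.82 and 6.17 in the short-term arrays and 6.41, 6.91, 7.00, 7.14 and 6.12 in the long-term arrays. The lowest long-term mean, that of replicate 5, was below the highest short-term mean, and replicate 5 was the lowest long-term array for 37 of the 49 genes and replicate 1 for 10. Without it 23 of the 49 genes were called and the median was 0.889. The number called was 1 without short-term replicate 1, 2 without replicate 2, 1 without replicate 3 and 2 without replicate 4, and 1, 2 and 2 without long-term replicates 2, 3 and 4. With the dim 50% of genes left out 11 were called, and with 23 arrays in 1 fit 2 were called. The untreated arrays had list means of 6.25 to 6.42, above all short-term means and above the lowest long-term mean.

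Promoter sequences of mitosis genes were compared because these members moved in one direction. Promoters of many late cell cycle genes carry a CHR element (cell cycle genes homology region), bound by the MuvB complexes that repress these genes in resting cells and activate them before mitosis, often with CCAAT boxes upstream that bind NF-Y. In RefSeq promoters (GRCm38.p6, 250 bases before to 50 bases after the first listed start), 41 of the 49 genes had an entry. The letters TTTGAA or TTCGAA, searched on both strands, were in 32 of the 41 (78.0%), and in 16.8% of the 15614 promoters of measured genes. Within 50 bases of the start they were in 29 of the 41 (70.7%), against 4.46% of all. CCAAT was in 30 of the 41 (73.2%) against 38.2% of all, and its letters can share 1 base with the first motif. The first motif was in 20 of 102 promoters of the genes called higher (19.6%) and in 11 of 98 of the genes called lower (11.2%). A match describes the letters in this window and was not tested as a site. The windows that follow belong to the called members with a match and to the next 5 mitosis genes by p, each 30 bases long, read along the strand on which the motif stands, with the match nearest to the start in capitals. The windows of Kif20b and Anln hold a further match, in Anln on the other strand, left in lower case.
Ect2, chr3:27153975-27154004, minus strand: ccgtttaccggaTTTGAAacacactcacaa
Spc25, chr2:69206172-69206201, minus strand: ggcggtggagagTTTGAAattgaaagactg
Kif23, chr9:61946780-61946809, minus strand: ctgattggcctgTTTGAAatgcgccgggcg
Ube2c, chr2:164769888-164769917, minus strand: ccgccgcccgcgTTTGAAttgcaaccctcc
Kif20b, chr19:34922353-34922382, plus strand: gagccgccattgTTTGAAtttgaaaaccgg
Ndc80, chr17:71526811-71526840, plus strand: aacccaaggcggTTTGAAttttaaagtttc
Prc1, chr7:80294434-80294463, plus strand: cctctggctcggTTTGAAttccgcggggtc
Anln, chr9:22389168-22389197, plus strand: ggccgttcaaaaTTTGAAtttcagcgcccc
Counted from the start, the first base of the motif was at -114 in Ect2, at 3 in Kif23 and at 25 in Spc25. The 5 further genes, of which Ube2c is a ubiquitin-conjugating enzyme of mitotic exit, Ndc80 a kinetochore subunit and Prc1 and Anln cytokinesis factors, differed by 0.85 (Ube2c), 0.81 (Kif20b), 1.07 (Ndc80), 1.11 (Prc1) and 0.91 (Anln), none of them called.

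Nek2, the mitosis gene called in every alternative, had no such match in its entry. Its 250 bases before the start are shown with their single CCAAT box in capitals.
Nek2, chr1:191821223-191821472, plus strand: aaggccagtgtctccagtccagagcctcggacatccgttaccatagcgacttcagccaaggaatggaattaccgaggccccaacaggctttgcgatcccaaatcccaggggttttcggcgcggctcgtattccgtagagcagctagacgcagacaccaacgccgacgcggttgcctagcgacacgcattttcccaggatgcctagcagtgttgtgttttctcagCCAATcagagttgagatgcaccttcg

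DNA replication genes gave a smaller shift. Differences were positive for 45 of 48 measured genes (median 0.427), against 49.2% of all genes. At an unadjusted p under 0.05, 33 were higher and 1 lower, against 6.42% and 5.44% of all genes. By limma's adjusted p 0 were called, and the closest were Mcm7, a helicase subunit (0.44 ± 0.10, adjusted p = 0.0524), Uhrf1, which recruits the maintenance DNA methyltransferase (0.73 ± 0.17, 0.064), and Prim1, a primase subunit (0.93 ± 0.23, 0.0875). Uhrf1 read 7.59, 7.33, 7.51 and 7.60 after 7 days and 7.87, 8.21, 8.70, 8.58 and 7.81 after 21 days, with no overlap. Without long-term replicate 5 there were 6 calls and without long-term replicate 1 there were 3. The E2F-like letters TTTCCCGC or TTTGGCGC were in 12 of the 38 promoters found for these genes (31.6%), against 2.32% of all. This share too describes a list drawn up by function and says nothing of the change.

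Among 30 replication-dependent histone genes 29 differences were positive, against 49.2% of all genes, with a median of 0.382. H1f5, a linker histone, was the 1 called member, at 8.36, 7.84, 7.99 and 8.56 after 7 days and 8.74, 9.19, 9.40, 9.42 and 8.86 after 21 days (0.93 ± 0.19, adjusted p = 0.0396). Its groups did not overlap. Its call was lost without short-term replicates 1, 2 or 3 or long-term replicates 2, 3 or 4 (adjusted p from 0.0189 to 0.405 over all alternatives), and 5 histone genes were called without long-term replicate 5. Of 17 cyclin-dependent kinase inhibitors and G1 cyclins 2 were called, both inhibitors and both higher. Cdkn2c, an inhibitor of Cdk4 and Cdk6, read 7.18, 7.39, 6.95 and 7.27 after 7 days and 8.37, 8.95, 8.21, 7.99 and 8.0 after 21 days (1.11 ± 0.18, adjusted p = 0.0163). All its long-term values exceeded all short-term values. Cdkn1b differed by 0.58 ± 0.12 (adjusted p = 0.0406), and the G1 cyclin Ccnd1 by 0.13 ± 0.10 (0.694). Of 22 p53 targets 0 were called by limma, and 5 were lower at an unadjusted p under 0.05, against 5.44% of all genes. Negative differences were found for 20 of the 22 (median -0.189), against 50.8% of all genes. Gadd45a, a growth arrest gene, was at -0.97 ± 0.22 (adjusted p = 0.0633). Cdkn2c lost its call without short-term replicate 3. The call of Cdkn1b was lost without short-term replicates 1, 2, 3 or 4 or long-term replicates 1, 2, 4 or 5.

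Further cell cycle genes, chosen after their values were seen, stood among the called genes outside these lists. Of 11 such genes 10 were higher: Pbk (1.36), Cdkn3 (1.16), Cenph (1.13), the replication kinase gene Cdc7 (0.96), Arhgap11a (0.85), Brca1 (0.80), E2f7 (0.78), the centriole kinase gene Plk4 (0.70), Haus1 (0.61) and the maintenance DNA methyltransferase gene Dnmt1 (0.58). Psrc1, which encodes a spindle protein, was lower (-0.67). Cdc7 read 4.67, 4.66, 4.39 and 4.86 after 7 days and 5.69, 5.89, 5.40, 5.72 and 5.35 after 21 days, without overlap.

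**Figure D2:**
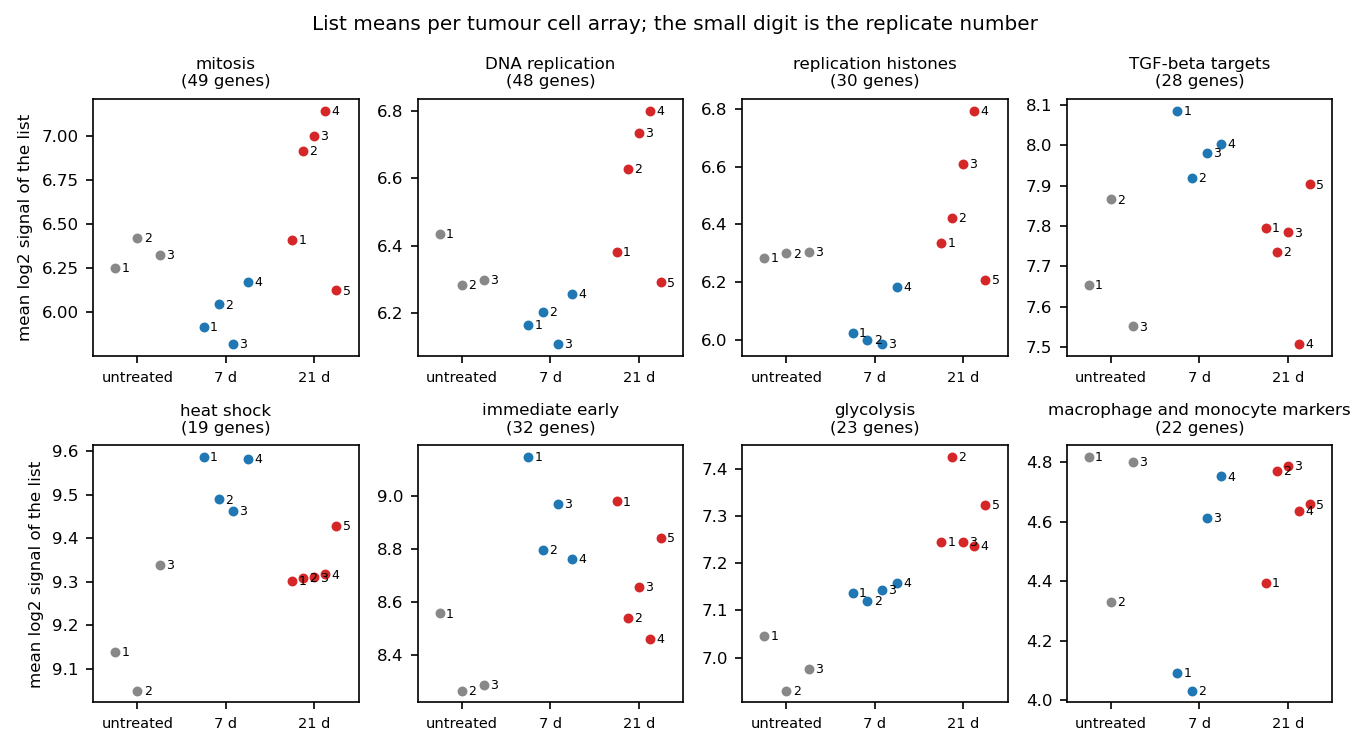
Mean log2 signal of 8 gene lists (y axis) in each tumour cell array by treatment group (x axis), with the replicate number beside each point. For the mitosis list long-term replicate 5 (6.12) sits within the short-term range of 5.82 to 6.17, while for glycolysis all long-term means (7.24 to 7.43) exceed all short-term means (7.12 to 7.16). The treated groups do not overlap either for the DNA replication, replication histone, TGF-beta target and heat shock lists.

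Receptor ligands, receptors and ERK feedback genes came next, because they lie on the pathways that nintedanib targets. Fgf7, the keratinocyte growth factor and a ligand of an epithelial form of FGFR2, read 4.59, 3.78, 3.56 and 3.60 in the short-term arrays and 7.19, 7.25, 6.74, 6.55 and 5.68 in the long-term arrays. The lowest long-term array, replicate 5, was still above all short-term arrays. The difference was 2.80 ± 0.50 (adjusted p = 0.0211), and the untreated arrays were spread widely (5.16, 4.24 and 7.13). Short-term values lay near the lower end of the scale, so the size of this difference is not exact and may be understated. Its call was lost without short-term replicates 2, 3 or 4 or long-term replicates 2 or 3, with adjusted p from 0.00373 to 0.0699 over 22 alternatives. It was the 1 called gene of 31 FGF ligands and receptors, whose median difference was 0.014. Fgf2 had a difference of -1.07 (adjusted p = 0.0774), Fgfr1 of -0.11 ± 0.09 (0.725) and Fgfr2, which was at 3.08 to 3.26 in all 9 arrays, of -0.03 ± 0.06 (0.916).

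Of 27 genes of the VEGF, PDGF and angiopoietin families 3 were called higher and 1 lower, against 0.622% and 0.597% of all genes. The median of the 27 was 0.007. Angptl7, an angiopoietin-like secreted protein, read 7.19, 7.22, 8.68 and 6.67 after 7 days and 10.44, 10.69, 10.01, 9.54 and 9.55 after 21 days (2.60 ± 0.45, adjusted p = 0.018). The groups did not overlap, and untreated arrays (8.86 to 10.87) spanned the long-term range. Pdgfra, a PDGF receptor and a marker of fibroblasts, read 9.15, 8.78, 8.72 and 9.02 after 7 days and 9.82, 10.22, 9.93, 9.62 and 9.88 after 21 days. It was higher in all 5 long-term arrays, by 0.98 ± 0.16 (adjusted p = 0.0163). Pdgfrb, the other PDGF receptor, ran the other way without passing, at 9.39, 9.0, 9.18 and 8.97 against 8.40, 8.11, 7.99, 7.26 and 8.54 (-1.07 ± 0.25, adjusted p = 0.0695, from 0.0338 to 0.195 over 22 alternatives). The apelin gene Apln, a peptide ligand of vessels, rose by 0.79 ± 0.13 (adjusted p = 0.0171), and Nrp1, a co-receptor for semaphorins and VEGF, fell by 0.97 ± 0.21 on the log2 scale (0.0486). Vegfa (-0.13 ± 0.16) and Kdr (0.12 ± 0.10), the main VEGF receptor gene of vessels, did not pass, and Kdr stayed at 3.69 to 4.05. Igf1, a survival ligand, was the 1 called gene of 23 in the HGF, MET, AXL and IGF families (-1.19 ± 0.20, adjusted p = 0.0163), with 5.90, 5.47, 5.67 and 6.0 after 7 days and 4.38, 4.91, 4.12, 4.54 and 4.91 after 21 days. All its long-term values were below all short-term values. Angptl7 lost its call without short-term replicates 1, 2 or 4. Pdgfra was no longer called without short-term replicates 2 or 3. For Apln the call was lost without short-term replicates 3 or 4. Nrp1 lost its call without untreated replicates 1, 2 or 3 or short-term replicates 1, 2, 3 or 4 or long-term replicates 2, 3 or 4. Leaving out short-term replicates 1 or 4 ended the call of Igf1.

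Of 30 genes of the RAS-ERK pathway and its feedback 4 rose and 2 fell, against 0.622% and 0.597% of all genes. The median of the 30 was -0.011. Rgl1, an exchange factor for the small GTPase Ral and an effector of RAS, had the smallest p of the comparison. It read 5.20, 5.30, 5.30 and 5.27 in short-term cells and 7.87, 7.87, 7.80, 7.97 and 7.40 in long-term cells, and 7.02, 7.14 and 6.62 in untreated cells. Short-term cells were the low group, and the long-term values lay above both other groups. The difference was 2.51 ± 0.12 (adjusted p = 2.09e-06), and it stayed called in all 22 alternatives. Against untreated cells the same fit gave -1.66 (adjusted p = 0.000538) for short-term and 0.85 (0.0397) for long-term cells, where 0.507% and 0.0903% of all genes were called. These comparisons share arrays with the one reported here.

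Etv1, an ETS transcription factor induced by ERK signalling, read 7.23, 6.82, 6.68 and 7.39 after 7 days and 8.51, 8.66, 8.29, 7.95 and 8.17 after 21 days (1.29 ± 0.17, adjusted p = 0.004). Spry4, an inhibitor of receptor tyrosine kinase signalling, read 5.16, 5.36, 5.15 and 5.18 against 5.75, 5.73, 5.95, 6.26 and 5.85 (0.69 ± 0.12, adjusted p = 0.0171). For both genes all long-term arrays were higher, and each untreated Spry4 value (5.99, 6.31 and 6.42) exceeded at least 4 of the 5 long-term values. Ets1 rose by 0.59 ± 0.09 (adjusted p = 0.0133), whereas the related factor Ets2 fell by 1.07 ± 0.18 on the log2 scale (0.0163), from 9.56, 9.55, 9.41 and 9.63 to 8.81, 8.31, 8.49, 7.84 and 8.88. Rasa1, a GTPase-activating protein that turns RAS off, fell by 0.42 ± 0.08 (adjusted p = 0.0285). Among EGF ligands and ERBB receptors 0 of 17 were called by limma and 5 had an unadjusted p under 0.05, with the ligand Hbegf at 0.61 ± 0.14 (adjusted p = 0.0511) and the receptor Egfr at -0.78 ± 0.18 (0.0604). Spry4 lost its call without short-term replicates 1, 3 or 4. The call of Ets2 was lost without short-term replicate 4. For Rasa1 the call was lost without short-term replicates 2, 3 or 4 or long-term replicates 1, 2, 3 or 4.

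**Figure D3:**
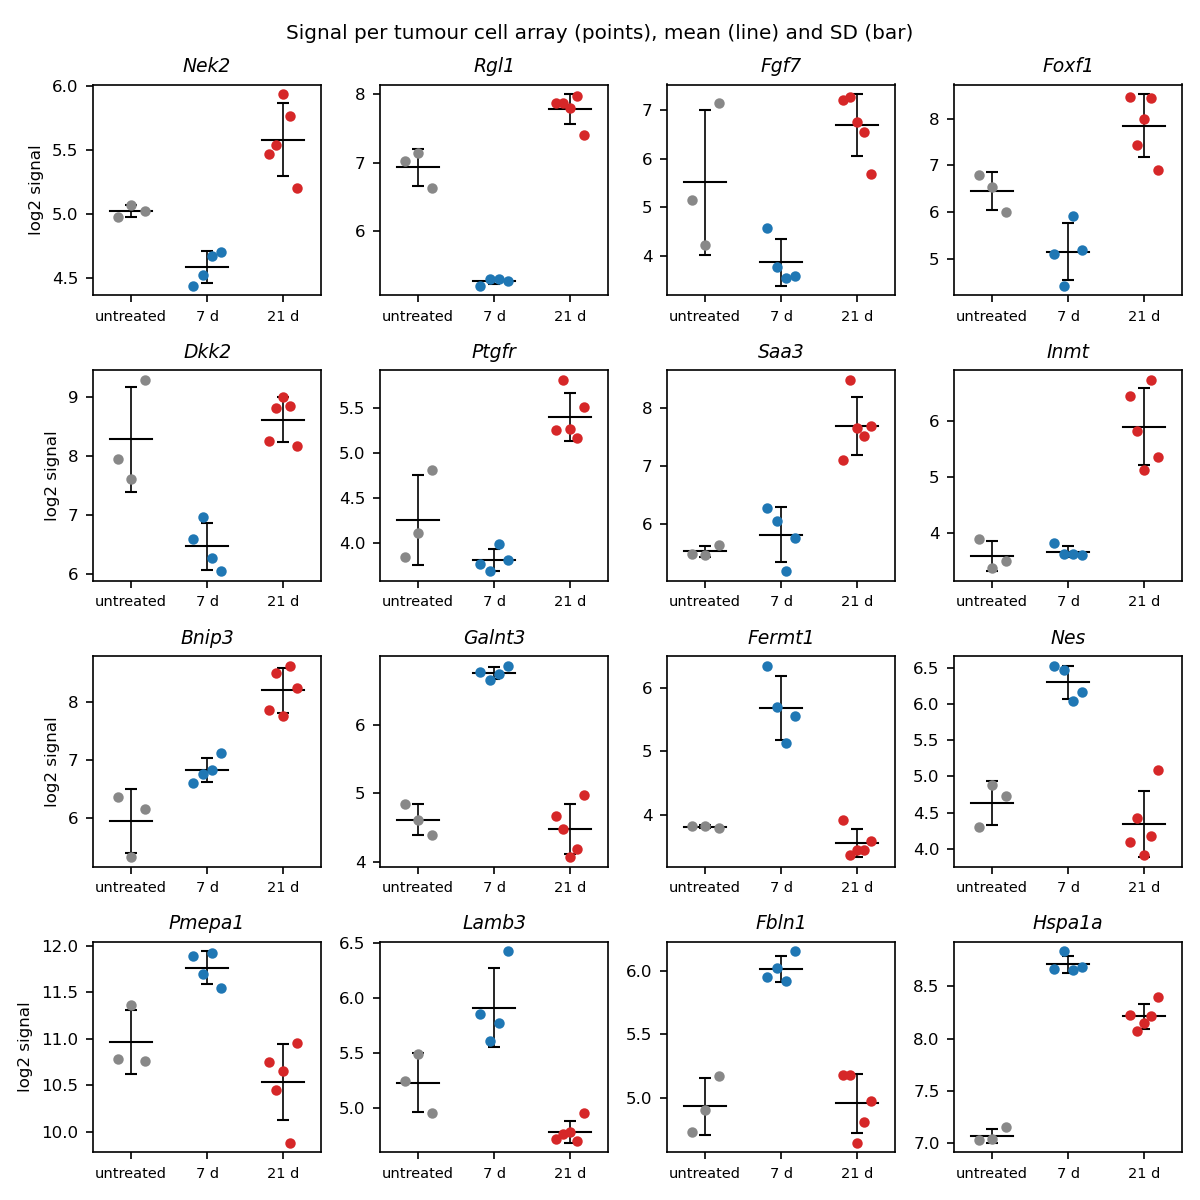
Log2 signal (y axis) of 16 genes in each of 12 tumour cell arrays, by group (untreated, 7 days, 21 days), with the mean as a line and the SD as a bar. For Rgl1, Nek2, Galnt3 and Fbln1 the 7-day arrays stand apart from both other groups, while Inmt and Saa3 stand higher after 21 days than in both other groups.

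Developmental signalling genes held several of the largest rises. Foxf1, a forkhead factor of the mesenchyme that responds to Hedgehog signals, read 5.09, 4.42, 5.91 and 5.18 after 7 days and 8.47, 7.44, 7.99, 8.45 and 6.90 after 21 days. No long-term array reached down to the short-term range. The difference was 2.70 ± 0.35 (adjusted p = 0.00448), called in all 22 alternatives. Gas1, a co-receptor of Hedgehog ligands, rose by 1.35 ± 0.16 (adjusted p = 0.00324), from 8.38, 8.17, 8.65 and 7.94 to 9.71, 9.41, 9.90, 9.68 and 9.46. These were the 2 called genes of 33 Hedgehog and Fox genes, whose median was 0.008. Of 50 Wnt ligands, antagonists and targets 1 rose and 2 fell. Dkk2, a secreted modulator of the Wnt co-receptors, read 6.58, 6.97, 6.26 and 6.04 after 7 days and 8.26, 8.81, 9.0, 8.84 and 8.16 after 21 days (2.15 ± 0.32, adjusted p = 0.00905). Its groups did not overlap, and its untreated values were 7.94, 7.60 and 9.29. The ligand gene Wnt7b (-0.86 ± 0.16, adjusted p = 0.0267) and the antagonist gene Sfrp2 (-0.94 ± 0.19, 0.0399) were lower. Wnt7b lost its call without short-term replicates 1, 2 or 4 or long-term replicates 1, 2 or 4. Sfrp2 was no longer called without short-term replicates 1, 2 or 4 or long-term replicates 1, 2, 3, 4 or 5.

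TGF-beta target genes held 5 called members of 28, all lower, against 0.597% of all genes called lower. The median was -0.138, and 20 of the 28 differences were negative, against 50.8% of all genes. At an unadjusted p under 0.05, 1 was higher and 9 were lower, against 6.42% and 5.44% of all genes. Pmepa1, an inhibitor of SMAD activation that TGF-beta induces, read 11.89, 11.70, 11.92 and 11.55 after 7 days and 10.75, 10.45, 10.65, 9.88 and 10.96 after 21 days. All long-term values were lower, by 1.22 ± 0.20 in the mean (adjusted p = 0.0147), and the gene was called in all 22 alternatives. Ltbp2, a matrix protein of microfibrils, differed by -1.48 ± 0.31, Postn by -1.02 ± 0.22, Id1, an inhibitor of bHLH factors, by -0.91 ± 0.17 and the collagen gene Col1a1 by -0.59 ± 0.11. Omitting short-term replicates 1 to 4 in turn left 1, 2, 2 and 3 called members, omitting long-term replicates 1 to 4 left 2, 2, 1 and 1, and omitting untreated replicate 1 left 3. With all 23 arrays in 1 fit 2 of the members were called lower, and a fit with the replicate block called 3. Of 41 TGF-beta and BMP ligands and receptors the co-receptor gene Tgfbr3 alone was called, at 8.38, 8.04, 8.23 and 8.03 after 7 days and 9.24, 9.24, 9.10, 8.78 and 9.11 after 21 days (0.92 ± 0.14, adjusted p = 0.00917). It rose in all 5 long-term arrays. Ltbp2 lost its call without untreated replicate 1 or short-term replicates 1, 2, 3 or 4 or long-term replicates 1, 2, 3 or 4. Leaving out untreated replicate 1 or short-term replicates 1, 2, 3 or 4 or long-term replicates 1, 3, 4 or 5 ended the call of Postn. For Id1 the call was lost without short-term replicate 1 or long-term replicates 1, 2, 3 or 4. Col1a1 lost its call without short-term replicates 1, 2 or 3 or long-term replicates 2, 3 or 4.

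Several of the large falls were in genes of epithelial adhesion, cornification and the matrix. The 14 largest falls also held Moxd1 (-1.83), Sectm1b (-1.82), Tmem47 (-1.695), Serinc2 (-1.62), Ctsc (-1.61), Ccbe1 (-1.60) and Tmem176b (-1.54). These genes, all called, are on no functional list, nor is Ptchd1 (1.67), 1 of the 14 largest rises. Moxd1, Sectm1b and Ptchd1 each lost the call on leaving out any of 7 arrays, and the others kept it without any 1 array. Over all alternatives Ctsc and Tmem47 were each called in 20 of 21, with limma adjusted p up to 0.206 and 0.0503. Fermt1, a kindlin that activates integrins in epithelia, read 6.35, 5.69, 5.13 and 5.55 after 7 days and 3.92, 3.37, 3.44, 3.44 and 3.58 after 21 days. All long-term arrays were below all short-term arrays, and the long-term values lay near the lower end of the scale. The difference was -2.13 ± 0.20 (adjusted p = 0.000549), called in all 21 alternatives that tested the gene. Dsp, which encodes desmoplakin and anchors keratin filaments to desmosomes, read 7.30, 7.76, 6.94 and 7.28 against 6.25, 5.38, 5.62, 5.14 and 6.08 (-1.62 ± 0.28, adjusted p = 0.0171). The desmosome plaque gene Pkp1 also fell (-1.07 ± 0.22, 0.0433), while Cldn1, a tight junction claudin, rose from 6.57, 6.98, 6.82 and 6.51 to 7.54, 8.25, 7.96, 8.57 and 7.38 (1.22 ± 0.23, 0.0246). The groups of Dsp and of Cldn1 did not overlap. These were the called members of 37 junction genes (2 lower and 1 higher, median -0.065), against 0.597% and 0.622% of all genes. Of 48 keratins 0 were called by limma, with 6 lower and 0 higher at an unadjusted p under 0.05. Dsp lost its call without short-term replicates 2 or 4. The call of Pkp1 was lost without untreated replicate 1 or short-term replicates 1, 3 or 4 or long-term replicates 1, 2, 3 or 4. For Cldn1 the call was lost without short-term replicates 1, 3 or 4 or long-term replicates 2 or 3.

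Of 32 cornified envelope genes 2 fell, both small proline-rich proteins that are cross-linked in stratified epithelia. Sprr1a read 7.87, 7.52, 6.85 and 7.42 after 7 days and 5.50, 4.87, 5.0, 5.47 and 4.83 after 21 days (-2.28 ± 0.39, adjusted p = 0.0172). All long-term arrays were lower, whereas 1 of the 3 untreated arrays reached 7.13. Sprr1b differed by -0.71 ± 0.14 (adjusted p = 0.0375). Of 31 regulators of the epithelial-mesenchymal transition and cadherins 2 were lower: Nes, the intermediate filament gene nestin, and Ncam1, a neural cell adhesion molecule (-1.02 ± 0.20, adjusted p = 0.0364). Nes read 6.52, 6.47, 6.04 and 6.17 after 7 days and 4.10, 4.43, 3.92, 4.18 and 5.09 after 21 days (-1.96 ± 0.21, adjusted p = 0.0019). Long-term replicate 5 was the highest of its group and still below all short-term arrays. The E-cadherin gene Cdh1, which holds epithelial cells together, read 8.17, 8.35, 8.27 and 7.94 against 7.16, 7.21, 7.82, 7.59 and 8.18, overlapping through long-term replicate 5 (-0.59 ± 0.33, adjusted p = 0.548). The N-cadherin gene Cdh2 (0.04 ± 0.07), Vim (0.09 ± 0.06) and the transition factor gene Zeb1 (-0.19 ± 0.10) did not pass. Sprr1a lost its call without short-term replicates 1, 2 or 4. Sprr1b was no longer called without short-term replicates 1, 2 or 4 or long-term replicates 2, 3, 4 or 5. For Ncam1 the call was lost without short-term replicates 1 or 4 or long-term replicates 1, 2, 3 or 4.

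Integrin and laminin genes moved in both directions, with a median of -0.023. Of 43 genes 2 were called higher and 3 lower, against 0.622% and 0.597% of all genes. Itga5, the alpha chain of the fibronectin receptor, read 9.66, 9.21, 9.78 and 9.68 after 7 days and 8.45, 9.03, 8.67, 8.41 and 8.60 after 21 days (-0.95 ± 0.14, adjusted p = 0.00836). Lamb3, a chain of the laminin that anchors epithelia to their basement membrane, read 5.85, 5.61, 5.77 and 6.43 against 4.72, 4.76, 4.78, 4.70 and 4.96 (-1.13 ± 0.15, 0.00564). Both were lower in all 5 long-term arrays and were called in all 22 alternatives. Lama5 fell as well (-0.94 ± 0.17, adjusted p = 0.0211). Lama4, a laminin chain of vessel and muscle basement membranes, rose from 5.16, 4.84, 4.54 and 5.09 to 6.36, 6.57, 5.92, 5.77 and 6.16 (1.25 ± 0.18, 0.00905), also in all 22 alternatives, and the integrin-like gene Itgbl1 rose by 1.5 ± 0.27 (0.0204). Neither gene's groups overlapped. Lama5 lost its call without short-term replicates 1, 2 or 4 or long-term replicates 2 or 3. Leaving out short-term replicates 2 or 4 or long-term replicates 2 or 3 ended the call of Itgbl1.

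Of 32 matricellular genes 1 rose and 3 fell, against 0.622% and 0.597% of all genes. Fbln1, which encodes the matrix glycoprotein fibulin, read 5.96, 6.03, 5.92 and 6.16 after 7 days and 5.17, 5.18, 4.64, 4.81 and 4.97 after 21 days (-1.06 ± 0.12, adjusted p = 0.00304). Every long-term value was lower, and the call held in all 22 alternatives. The thrombospondin genes went opposite ways, with Thbs2 at 1.39 ± 0.27 (adjusted p = 0.0336) and Thbs3 at -0.70 ± 0.12 (0.0171). Among 36 proteoglycan and elastic fibre genes Bgn, the small proteoglycan biglycan (-0.75 ± 0.12, 0.0145), and the glypican gene Gpc6 (-0.47 ± 0.09, 0.0238) fell and Emilin2 (0.83 ± 0.17, 0.0437) rose. Of 44 collagen genes Col10a1, the collagen of hypertrophic cartilage, rose (0.77 ± 0.16, 0.0413), and Col1a1, named above, fell. Of 44 matrix metalloproteinase, ADAMTS and TIMP genes 0 were called by limma, with 3 higher and 3 lower at an unadjusted p under 0.05. Thbs2 lost its call without short-term replicates 1, 2, 3 or 4 or long-term replicates 2, 3, 4 or 5. The call of Bgn was lost without short-term replicate 4. For Gpc6 the call was lost without short-term replicates 2, 3 or 4 or long-term replicates 2, 3 or 4. Emilin2 lost its call without untreated replicate 1 or short-term replicates 1, 2, 3 or 4 or long-term replicates 1, 2, 3 or 5. Col10a1 was no longer called without short-term replicates 1, 2, 3 or 4 or long-term replicates 1, 3, 4 or 5.

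Galnt3, which starts mucin-type O-glycosylation, had the smallest p among the falls. It read 6.77, 6.65, 6.73 and 6.86 after 7 days and 4.67, 4.47, 4.07, 4.18 and 4.97 after 21 days, and 4.85, 4.62 and 4.39 in untreated cells. The short-term arrays were the high group. The difference was -2.28 ± 0.16 (adjusted p = 9.15e-05, from 1.47e-08 to 0.000773 over 22 alternatives), and it was the 1 called gene of 43 glycosyltransferase genes (median 0.022). Of 65 semaphorin, plexin, ephrin and netrin genes, 31 with positive and 34 with negative differences (median -0.014), Unc5b, a netrin receptor (-1.21 ± 0.19, adjusted p = 0.0133), Ephb6 (-0.92 ± 0.17, 0.0238) and Plxnb1 (-0.40 ± 0.09, 0.0483) fell, and the ligand gene Ntn4 rose (0.91 ± 0.17, 0.0242). Ephb6 lost its call without short-term replicates 2, 3 or 4 or long-term replicates 2 or 3. Leaving out untreated replicates 1 or 3 or short-term replicates 1, 2, 3 or 4 or long-term replicates 1, 2, 3, 4 or 5 ended the call of Plxnb1. For Ntn4 the call was lost without short-term replicates 1, 2, 3 or 4 or long-term replicates 3 or 4.

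**Figure D4:**
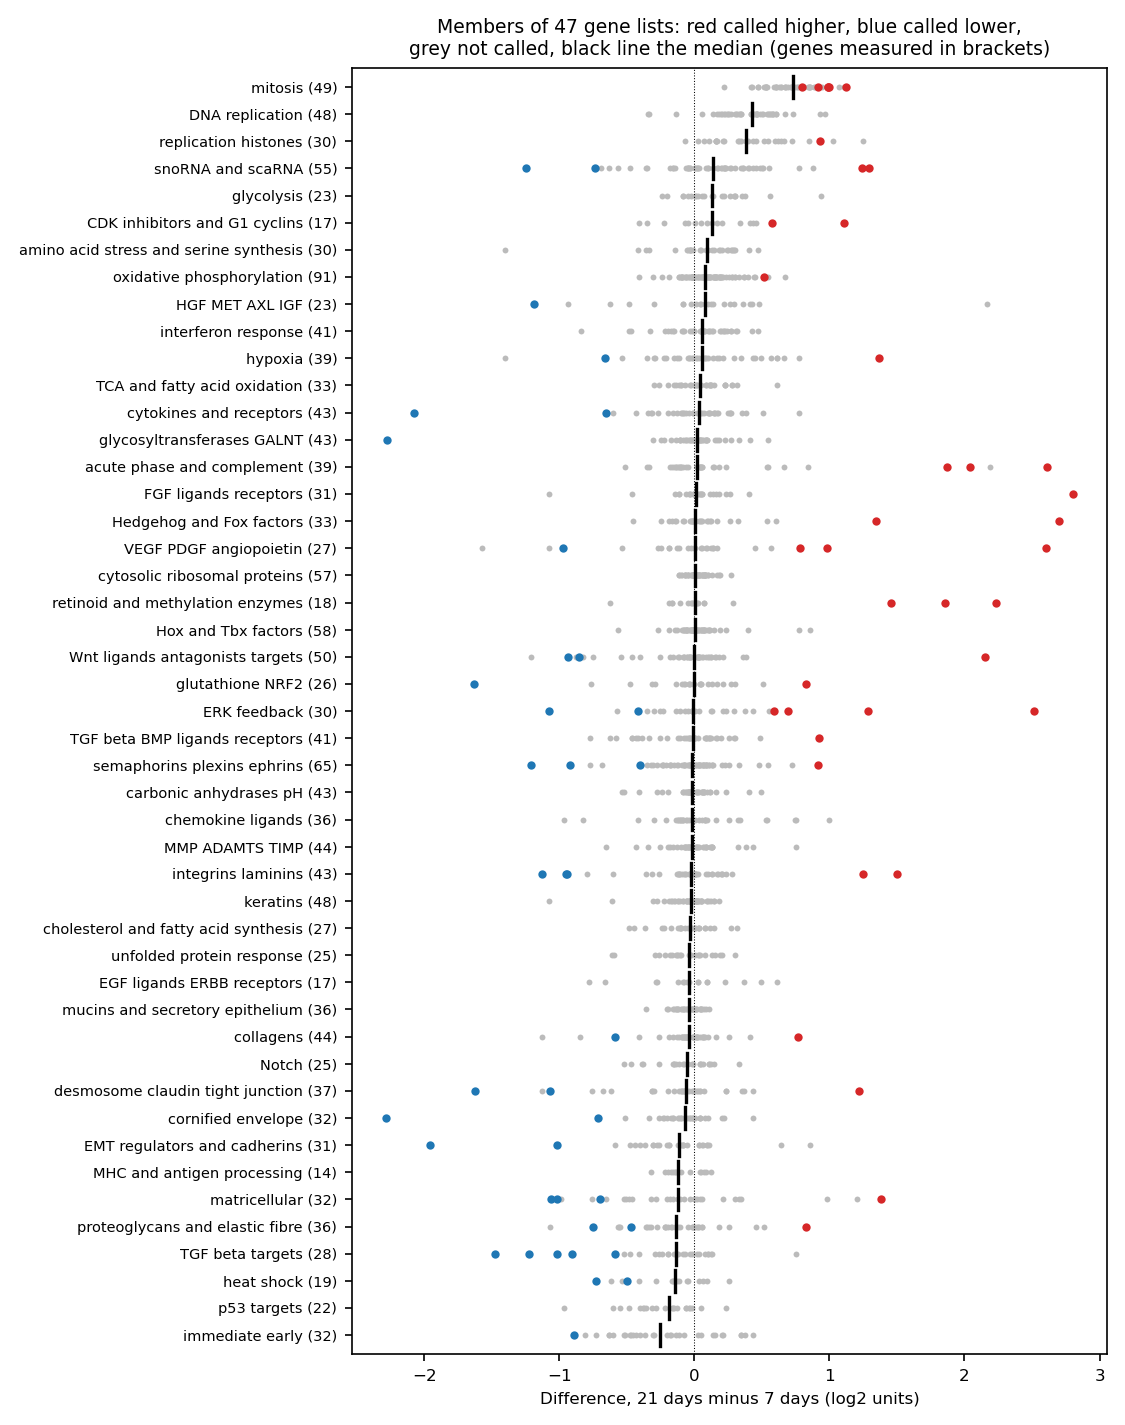
Differences of 21 minus 7 days (x axis, log2 units) for the measured members of 47 functional gene lists (y axis), with called genes in red (higher) or blue (lower) and the list median as a black line. The mitosis list has the highest median (0.727) and the immediate early list the lowest (-0.252), while 33 of the 47 medians are under 0.1 in size.

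Some acute phase and retinoid genes rose after 21 days. Of 39 acute phase and complement genes 3 rose and 0 fell, against 0.622% and 0.597% of all genes, with a list median of 0.022. Saa3, a serum amyloid A protein made outside the liver, read 6.28, 6.05, 5.19 and 5.75 after 7 days, 7.11, 8.48, 7.65, 7.52 and 7.69 after 21 days, and 5.49, 5.47 and 5.63 untreated. Only the long-term group was high, by 1.87 ± 0.25 against short-term (adjusted p = 0.00564) and 2.16 against untreated cells (0.0174). Saa1 read 4.31, 3.45, 3.69 and 3.95 against 6.30, 8.11, 5.20, 5.92 and 6.75 (2.61 ± 0.45, 0.018), and Saa2, a near-identical copy whose probes may share its signal, differed by 2.19 ± 0.51 (0.0632). Masp1, a serine protease of the lectin pathway of complement, rose by 2.04 ± 0.37 (adjusted p = 0.0221). The calls of Saa1 and Masp1 were lost without short-term replicates 3 or 4, that of Saa1 also without short-term replicate 2 and that of Masp1 without short-term replicate 1, at adjusted p up to 0.0586 and 0.0745 over all alternatives.

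Of 18 genes on a joint list of retinoid and methylation genes 3 rose and 0 fell, against 0.622% and 0.597% of all genes. The list median was 0.004, and earlier results were known when the list was made. Inmt, a methyltransferase of indole amines, read 3.82, 3.63, 3.63 and 3.61 in short-term, 3.90, 3.38 and 3.50 in untreated and 6.46, 5.83, 5.13, 6.74 and 5.37 in long-term cells. It was high in all 5 long-term arrays and in none of the other 7 tumour cell arrays (2.23 ± 0.28, adjusted p = 0.004). As for Fgf7, the low values lay near the lower end of the scale, as did those of Saa1 and Ptgfr, and the sizes may be understated. Crabp1, a cytosolic carrier of retinoic acid, read 9.59, 10.47, 9.82 and 9.21 against 12.17, 11.55, 11.84, 11.34 and 11.25 (1.86 ± 0.30, 0.014), and Rarres1, induced by retinoic acid in skin, rose by 1.46 ± 0.25 (0.0171). Ptgfr, the receptor of prostaglandin F, read 3.77, 3.68, 3.98 and 3.81 after 7 days and 5.25, 5.81, 5.26, 5.16 and 5.51 after 21 days (1.59 ± 0.18, adjusted p = 0.00264). Its long-term values were all higher. Of 43 cytokine and cytokine receptor genes 2 fell, Il18r1, a chain of an interleukin receptor (-2.07 ± 0.37, 0.0204), and Il1rn, an antagonist of interleukin signalling (-0.66 ± 0.14, 0.0406), and of 36 chemokine ligands 0 were called by limma, with 5 higher and 2 lower at an unadjusted p under 0.05. Rarres1 lost its call without short-term replicates 3 or 4. The call of Il18r1 was lost without short-term replicates 1, 3 or 4 or long-term replicates 2 or 3. For Il1rn the call was lost without short-term replicates 1, 2 or 3 or long-term replicates 2, 3 or 4.

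Metabolic genes were compared because the title of the series names metabolic symbiosis. Counts of called genes here stand against 1.22% of all genes. Bnip3, a mitochondrial protein of mitophagy that hypoxia induces, read 6.61, 6.75, 6.83 and 7.11 after 7 days, 7.86, 8.50, 7.75, 8.62 and 8.24 after 21 days, and 6.36, 5.33 and 6.16 untreated. The long-term arrays were the highest of the 12 (1.37 ± 0.23 against short-term, adjusted p = 0.0163). Of 39 hypoxia genes it was the 1 called higher, and Bhlhe41, a circadian repressor, the 1 called lower (-0.67 ± 0.13, 0.0285), with a median of 0.058. Car9, a carbonic anhydrase induced by hypoxia, was at 3.51 to 5.03 and did not pass (0.50 ± 0.25, 0.489). The lactate transporter genes Slc16a1 (-0.24 ± 0.13, adjusted p = 0.549) and Slc16a3 (-0.03 ± 0.07, 0.941), the glucose transporter gene Slc2a1 (0.01 ± 0.13, 0.988), Hk2 (0.30 ± 0.15, 0.487), Pfkp (-0.20 ± 0.16, 0.733) and Ldha (0.30 ± 0.11, 0.273) did not pass either. Slc16a1 read 7.85, 7.92, 7.69 and 7.37 against 7.61, 7.47, 7.38, 7.13 and 7.76, so its groups overlapped. Bnip3 lost its call without short-term replicate 1. Bhlhe41 was no longer called without short-term replicates 1, 3 or 4 or long-term replicates 1, 2, 3 or 4.

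The list mean of 23 glycolysis genes was 7.12 to 7.16 in the short-term arrays and 7.24 to 7.43 in the long-term arrays, without overlap, and 17 of 23 differences were positive with a median of 0.13. Such separation was not particular to glycolysis: the means of p53 targets, oxidative phosphorylation and transition genes, among other lists, did not overlap either. Limma called 0 of the glycolysis genes. At an unadjusted p under 0.05, 8 were higher and 0 lower, against 6.42% and 5.44% of all genes. Ldhb, the lactate dehydrogenase chain of oxidative tissues, was the closest, at 5.11, 5.0, 5.39 and 5.39 against 5.93, 6.67, 6.52, 5.73 and 5.96 (0.94 ± 0.21, adjusted p = 0.0585, from 0.0177 to 0.159 over 22 alternatives). Of 91 oxidative phosphorylation genes 63 differences were positive (median 0.078), and Ndufs5, a subunit of complex I, was the 1 called gene (0.52 ± 0.10, 0.0308). Of 26 glutathione and NRF2 genes Gstm1, a glutathione transferase, rose (0.82 ± 0.11, 0.00564) and Mgst1, a microsomal one, fell (-1.63 ± 0.33, 0.0365). Of 33 genes of the citric acid cycle and fatty acid oxidation and 27 of sterol and fatty acid synthesis 0 were called by limma, with 5 higher and 1 lower and with 0 higher and 2 lower at an unadjusted p under 0.05. Ndufs5 lost its call without short-term replicates 1, 3 or 4 or long-term replicates 2, 3 or 4. Leaving out short-term replicates 1, 2 or 4 or long-term replicates 1, 2, 3 or 4 ended the call of Mgst1.

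The stress response genes that passed the test were lower after 21 days, where 0.597% of all genes were called lower. Such genes also respond to the isolation and sorting of cells. Of 32 immediate early genes 22 differences were negative (median -0.252), against 50.8% of all genes. At an unadjusted p under 0.05, 12 were lower and 2 higher, against 5.44% and 6.42% of all genes. The 1 called gene among the 32 was Klf2, a Kruppel-like factor (-0.89 ± 0.18, adjusted p = 0.0379). Their list mean ran from 8.76 to 9.15 in short-term and from 8.46 to 8.98 in long-term arrays, with overlap. Of 19 heat shock genes 2 were called, both lower, with a median of -0.145, and both calls were lost with all 23 arrays in 1 fit. Hspa1a, an inducible chaperone, read 8.66, 8.83, 8.66 and 8.69 after 7 days, 8.22, 8.07, 8.15, 8.22 and 8.39 after 21 days, and 7.03, 7.04 and 7.15 untreated. The long-term values lay between those of the other groups (-0.50 ± 0.07 against short-term, adjusted p = 0.00905, and 0.844 with all 23 arrays in 1 fit). The co-chaperone gene Dnajb1 fell by 0.73 ± 0.13 (0.0204). The part of these genes in the other differences was not tested. Of 25 genes of the unfolded protein response 0 were called by limma, with 0 higher and 2 lower at an unadjusted p under 0.05. Per1 (-1.24 ± 0.22, adjusted p = 0.0182) and Tsc22d3 (-1.11 ± 0.22, 0.0336), which glucocorticoids induce, were lower, while the likewise responsive Klf9 (-0.60, 0.13) and Fkbp5 (-0.48, 0.573) did not pass. These 4 genes were chosen after their values were seen. Of 55 small nucleolar RNA genes 2 were higher and 2 lower (median 0.135), and of 57 cytosolic ribosomal protein genes 0 were called by limma (median 0.006, 1 higher and 0 lower at an unadjusted p under 0.05). Klf2 lost its call without short-term replicates 1, 2 or 3 or long-term replicates 1, 2, 3 or 4. The call of Dnajb1 was lost without short-term replicates 1, 3 or 4 or long-term replicates 2 or 3.

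Of 15 lists of marker genes of other cell types and sorting genes 13 had no called member. The exceptions were the fibroblast list (14 genes, median 0.014), with Pdgfra higher and Col1a1 lower, and the list of sorting and lineage genes, with Pdgfra higher and Cd24a lower (-0.95). The fibroblast list means were 5.95 to 6.25 in short-term and 5.95 to 6.08 in long-term arrays. Of the defining fibroblast genes Pdgfra (values above) and Dcn, decorin (12.66 to 13.08), were high in all 9 arrays. The defining gene Lum (3.08 to 4.92) and the further gene Fap (2.81 to 3.10) were low in all 9. Macrophage and monocyte markers (22 genes, limma calls 0, 4 higher at an unadjusted p under 0.05) had a median of 0.146 and list means of 4.03 to 4.75 in short-term and 4.40 to 4.79 in long-term arrays, with 17 differences positive. Endothelial markers (22 genes) had a median of 0.051 and 0 calls by limma, with 1 higher and 1 lower at an unadjusted p under 0.05. Schwann cell and neuron markers (6 genes, median -0.054, 0 calls by limma, 0 higher and 1 lower at an unadjusted p under 0.05) had list means of 4.51 to 4.74 in short-term and 4.26 to 4.48 in long-term arrays, without overlap. Their member with the largest difference was S100b, a calcium-binding protein of glia and other cells, which read 6.03, 5.68, 6.69 and 6.13 after 7 days and 5.38, 4.53, 4.18, 3.74 and 5.40 after 21 days (-1.49 ± 0.33, adjusted p = 0.0526). The defining Schwann cell gene Sox10 was at 4.50 to 4.69 in all 9 arrays. The part of these cells in the differences above was not tested.

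Endothelial cells from the same treatment times were compared to see which changes differed between the fractions. In endothelial cells 0 genes were called between 21 and 7 days by limma. The endothelial arrays spread more than the tumour cell arrays and only 3 were short-term, so 0 calls do not show that nothing changed. The difference of the change between tumour and endothelial cells passed for 7 genes (0.0351%), against 1959 (9.83%) at an unadjusted p under 0.05, and 6 of the 7 were also called in tumour cells. The exception was Tmem63b, which differed by -0.28 in tumour cells without being called and by -1.37 in the difference between the fractions. Galnt3 changed by -2.28 in tumour and by -0.03 ± 0.10 in endothelial cells (difference -2.25 ± 0.21, adjusted p = 1.85e-05), and Rgl1 by 2.51 and by 0.33 ± 0.22 (2.18 ± 0.25, adjusted p = 0.000339). Fermt1 (-1.96 ± 0.25), Nes (-1.83 ± 0.28), Esyt3, a protein of membrane contact sites (-1.32 ± 0.21), and Ptgfr (1.63 ± 0.22) also differed between the fractions. Without endothelial short-term replicate 2 this count was 199, without replicate 1 it was 32 and without replicate 3 it was 11. It was 13 without endothelial long-term replicate 2 or 5 and 12 without tumour long-term replicate 2 or 5.

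Several genes that rose in tumour cells also had positive differences in endothelial cells, none of them called. Foxf1 differed by 1.68 in endothelial against 2.70 in tumour cells, Angptl7 by 2.37 against 2.60, Crabp1 by 2.72 against 1.86, Pdgfra by 1.29 against 0.98 and Bnip3 by 1.13 against 1.37. Endothelial standard errors were 0.54 (Foxf1), 0.58 (Angptl7), 1.10 (Crabp1) and 0.25 (Bnip3), against 0.35, 0.45, 0.30 and 0.23 in tumour cells. For Fgf7 (0.33), Dkk2 (0.15), Inmt (0.45) and Saa1 (0.24) the endothelial differences were smaller, and none of these 9 genes passed the test of a difference between the fractions.

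**Figure D5:**
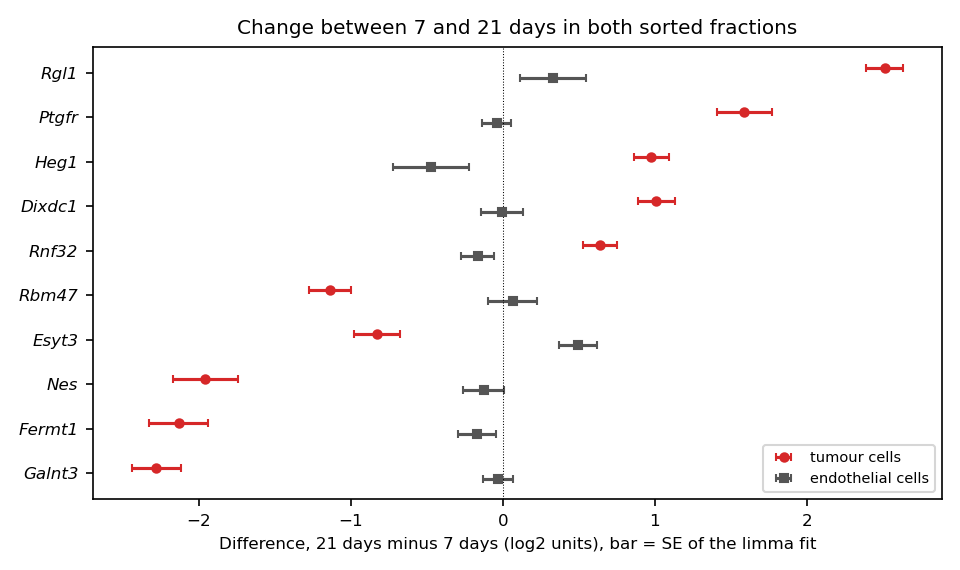
Differences of 21 minus 7 days (x axis, log2 units, bars give the SE) in tumour cells (red circles, 5 against 4 arrays) and endothelial cells (grey squares, 5 against 3 arrays) for the 5 genes per direction with the smallest p of the difference between fractions. Galnt3, Fermt1 and Nes lie near -2 in tumour cells and near 0 in endothelial cells, and Esyt3 has opposite signs.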

How the data were processed

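The deposited table holds log2 signals from expression arrays (1.93 to 14.06), which the authors made with RMA and oligo, per the submitters' processing notes. No version of either is given in the sources used here. The RMA step fits background and scale over all arrays, so a difference is relative to the other genes. Of 35556 transcript clusters 21789 named 1 gene; for a gene with several, the cluster with the highest mean over 23 arrays was kept, leaving 19938 genes. The 12 tumour cell arrays (3 untreated, 4 short-term, 5 long-term) were fitted by group with limma 3.58.1 in R 4.3.3 (lmFit, eBayes, Benjamini-Hochberg adjustment over all genes, no filter on dim genes), and the difference between fractions was fitted with the endothelial arrays added. P-values measure the spread between arrays, whose number limits the precision.

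On simulated data with 200 of 19938 genes changed, the fit recovered 55.2% at a log2 change of 0.5, 94.0% at 1 and 100% at 2, and 4.6% of the calls were false. The simulated noise was normal, independent between genes and of equal spread in all arrays. Shifts of 1 array shared by many genes, as in long-term replicate 5, were not simulated, so these rates may not hold for the real calls. Same-numbered short-term and long-term arrays deviated with correlations of 0.043, 0.082, -0.001 and 0.077, and differently numbered ones with -0.115 to 0.079. These ranges overlap, so the check does not settle whether the numbers mark pairs. They were not taken as pairs. Named genes were the 14 largest rises and falls without predicted genes, small RNAs and olfactory, vomeronasal and taste receptors, up to 8 called members per gene list or, where none was called, up to 3 with the smallest p, a panel of single genes, and up to 5 genes per direction by the difference between fractions; others are named as chosen after their values were seen or serve as markers. Members and lists were chosen with earlier results of these data known. Alternatives changed the arrays fitted, the filter, the prior, array weights, the cluster rule, normalization, centring, the replicate block and each array in turn. Promoters were searched in RefSeq sequences.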

Additional observations from a re-analysis of the deposited data

Results flagged for a closer look

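In 24 of 456 groups tested 1 array lay far from the rest of its group, and chance alone gives about 1 in 20. Among short-term arrays these were replicate 1 for Inmt (3.82), Snord15b (6.33) and Thbs3 (6.17), replicate 2 for Hspa1a (8.83), Spry4 (5.36) and Tbx15 (4.78), and replicate 3 for Id1 (7.95), Lama5 (6.14), Hk2 (5.17) and Esyt3 (6.86), all as log2 signals. Among long-term arrays they were replicate 1 for Hadh (8.43) and Epcam (5.26), replicate 4 for Krt76 (3.27), Plxnb1 (4.95), Fgfr1 (8.91) and Esyt3 (5.93), and replicate 5 for Il18r1 (6.39), Nlrc5 (7.29) and Foxm1 (5.96). Foxm1 was at 7.08 to 7.46 in the other long-term arrays.

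Of list means, 5 stood apart in the same way: heat shock genes in long-term replicate 5 (9.43), TGF-beta and BMP ligands and receptors in short-term replicate 1 (6.25), EGF ligands and ERBB receptors in short-term replicate 2 (5.8), and erythrocyte and platelet markers (4.55) and mammary basal markers (5.86) in long-term replicate 1.

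The change from 7 to 21 days differed between tumour and endothelial cells, by the limma test of the difference itself, for Galnt3 (-2.25), Fermt1 (-1.96), Nes (-1.83), Esyt3 (-1.32), Rgl1 (2.18) and Ptgfr (1.63), as tumour minus endothelial change in log2 units.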

How the results depend on the processing

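All 243 called genes kept their sign in each alternative that tested them, but many alternatives could not change it. Fitting the treated arrays alone or all 23 arrays, filtering dim genes, changing the prior or omitting an untreated array leaves the difference unchanged. For the 240 whose groups did not overlap, leaving out 1 array could not reverse the sign either. In those settings a kept sign adds no support. With 23 arrays in 1 fit 96 genes were called, 79 of them among the 243. Leaving out 1 tumour array at a time gave 95 to 307 calls, and of 92 named called genes 33 kept the call without any 1 of 12 arrays, while 59 lost it without at least 1. The other settings gave 239 to 357 calls. The 7 genes that differed between fractions became 4 with genes above the 50th percentile and 12 with a trended, robust prior, and leaving out 1 array gave 7 to 199. With the replicate number as a block, a pairing that the check did not settle, 276 genes were called (169 of the 243) and 4 differed between fractions. Long-term replicate 5 has no short-term partner and adds nothing to that block fit. The B and plasma cell markers had no member above the 50th percentile and gave no value there. The causes were not tested. Signals near the lower end of the scale limit what can be seen of genes such as Kdr and Fgfr2.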

Other observations

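Some called genes outside the lists, chosen after their values were seen, act in signalling between cells. Nt5e, which makes extracellular adenosine, was lower after 21 days (-1.40, adjusted p = 0.00905, limma), and so was Ada, which removes it (-0.63). Edn2, an endothelin peptide (1.13), Kitl, the ligand of the KIT receptor (0.70), and Sox2, a transcription factor of stem cells (0.99), were higher. Prune2 was higher by 1.38 ± 0.12 (adjusted p = 0.000411).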
